A study of Mus musculus with 6 samples.

Results

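The nuclear-encoded genes of cytochrome c oxidase, also called complex IV, were examined in GAS muscle of mKD and WT mice. The set was a fixed list of 35 genes, of which 14 encode structural subunits, 20 encode assembly factors and 1, *Cox7a2l*, encodes a subunit-related protein that joins complexes III and IV. Of the 22027 genes in the deposited table, all 35 were found with a mean value of at least 10 over the 6 libraries. All 35 were also among the 12322 genes that passed the filter on low counts. The lowest mean was 57.6, for *Cox4i2*, so that no listed gene fell outside the limit of 10.

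RNA-seq of poly(A)-selected RNA, with a strand-specific kit, was performed on GAS muscle of 3 mKD and 3 WT mice, 1 library per mouse. All 6 mice were females of 14 weeks on regular chow and carried floxed *Tet3* alleles (*Tet3* fl/fl). The mKD mice also carried HSA-Cre79, a Cre recombinase driven by the human skeletal muscle actin promoter, and the WT mice were floxed littermates. The promoter limits deletion to muscle fibres, so vessels, nerve and other cells in the tissue keep *Tet3*. Values are normalised counts, which are reads per gene divided by 1 factor per library. A gene is described as called when it differed by at least 1.2-fold with an unadjusted p under 0.05 in limma. Adjusted p-values are Benjamini-Hochberg values over all 12322 genes, and log2 fold changes are mKD over WT of log2(value + 1), given with their standard error (SE).

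Complex IV is the last enzyme of the respiratory chain. It takes electrons from cytochrome c, passes them to oxygen and pumps protons across the inner mitochondrial membrane. Its catalytic core, with haem and copper centres, is encoded by mitochondrial DNA, and the subunits around that core are encoded in the nucleus. In striated muscle, muscle isoforms of subunits 6A, 7A and 8 take the place of the isoforms used in most other tissues. Assembly factors do not stay in the finished enzyme. They make haem A, deliver copper, hold the newly made core subunits or support the translation of their mRNAs.

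*Tet3*, the targeted gene, had normalised counts of 425, 318 and 472 in the mKD libraries and 594, 536 and 708 in the WT libraries. Every mKD value lay below every WT value, and the log2 fold change was -0.60 (SE 0.18, limma adjusted p = 0.18). The libraries held 28050939 to 32148270 reads in mKD and 16219227 to 26705724 in WT, with the lowest depth in WT 1. The 7 myofibre markers were detected in every library, with summed values between 3674752 and 4638239. Some libraries stood apart in markers of other cells or fibres. The summed value of 6 Schwann cell markers was 37003, 1745 and 11287 in mKD 1, 2 and 3, against 2292 to 2396 in WT, while slow-fibre markers summed to 45938, 128389 and 47762 in mKD and 77403, 6016 and 192473 in WT 1, 2 and 3. All 7 endothelial markers were lower in every mKD library than in any WT library, against 12.7% of all genes tested. Of these markers 6 were called lower, against 9.51% of all genes tested. Their sums were 6098 to 8028 in mKD and 10695 to 11879 in WT. The part of these markers in the complex IV results was not tested. In whole tissue, fewer cells of a type and less RNA per cell cannot be told apart.

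Most structural subunits had higher transcript levels in mKD muscle than in WT muscle, and some assembly factors did. Of the 14 subunits, 11 were called higher and 0 lower, at a median of 0.34 on the log2 scale. Of the 20 assembly factors, 5 were called higher and 0 lower, with a median of 0.09, while *Cox7a2l* was called higher. In total 17 of 35 members were called higher, whereas 8.31% of all genes tested were called higher and 9.51% lower. The median over all genes tested was 0.01. No member reached an adjusted p under 0.05 (0 of 35; 0.0162% of all genes tested), while 17 members had an unadjusted p under 0.05 in limma. On the recovered reads, 0 members reached an adjusted p under 0.05 with edgeR and 1 with DESeq2, *Coa3* (DESeq2 adjusted p = 0.043). At an unadjusted p under 0.05 and 1.2-fold, 15 members were called higher with edgeR and 17 with DESeq2, and both called 1 member, *Coa7*, lower. In 12 members every mKD library lay above every WT library, against 12.1% of all genes tested. In 0 members did every mKD library lie below every WT library, against 12.7% of all genes tested.

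These counts depended on transcript length and on single libraries. When the trend of fold change with the longest annotated transcript was removed from each library, 0 members were called higher and 2 lower. Of the 12315 genes tested with a length, 621 were then called higher and 673 lower. Taking the median transcript as the length left 8 members called higher, against 821 of all genes. Leaving out WT 1 left 6 members called higher, leaving out mKD 2 left 7, leaving out mKD 1 left 8 and leaving out WT 2 left 9. Over all genes, 716, 944, 582 and 918 were called higher in these fits, in the same order. *Cox7a2l*, *Cox7c*, *Cox8a*, *Surf1*, *Coa3* and *Pet100* were called higher whichever of the 6 libraries was left out. The share of all genes called in every such fit is not given here. None of these members was called with the trend over the longest transcript removed. With mKD 1 and mKD 3, the libraries with the high Schwann cell sums, left out, 11 members were called higher, 9 of them among the 17 above. In that fit mKD 2 was the only mKD library and was taken to vary as the WT libraries do.

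Levels between genes were compared per kb of the principal annotated transcript. *Cox6a2*, the heart and muscle isoform of subunit 6A, was the most abundant member, at 50336 ± 7061 per kb in mKD and 37806 ± 5926 in WT (SD, n = 3 mice each). *Cox8b*, the heart and muscle isoform of subunit 8, came next at 36337 ± 6773 per kb in mKD and 24815 ± 7063 in WT (SD, n = 3 mice each). *Cox5a*, *Cox6b1*, *Cox7a1* and *Cox4i1* followed, and in this order each overlapped the next within 1 SD in either genotype. Every subunit except *Cox8a*, *Cox6a1* and *Cox4i2* lay above all 20 assembly factors. The most abundant assembly factor was *Cox14*, at 2826 ± 640 per kb in mKD and 1772 ± 380 in WT (SD, n = 3 mice each). *Coa7* was at the low end, at 34.7 ± 10.5 per kb in mKD and 85.8 ± 74 in WT (SD, n = 3 mice each). This place depends on the transcript taken as the length. The principal transcript of *Coa7* has 3714 nucleotides and its median transcript 565. For *Cox17* these lengths are 3690 and 457.5. Without division by length, the mean value of *Coa7* was 224, above that of *Cox4i2* at 57.6.

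**Figure D1:**
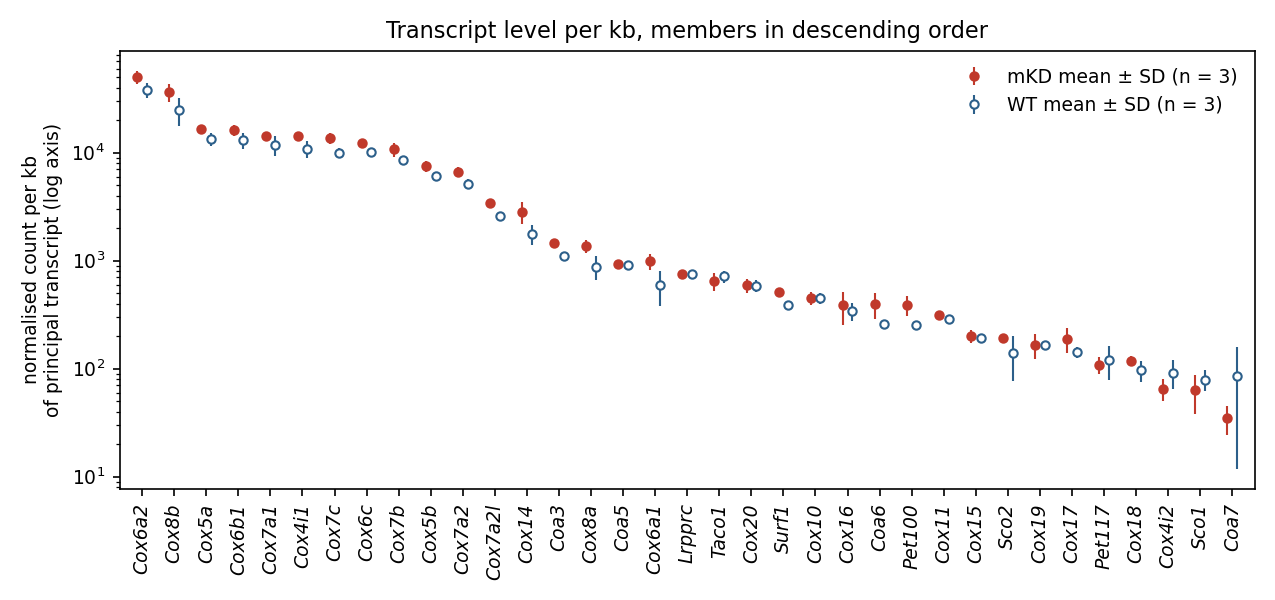
Normalised count per kb of the principal transcript for the 35 members, on a log axis, ordered by the mean over the 6 libraries. Filled red points are mKD and open blue points WT, as mean ± SD of 3 mice each. *Cox6a2* is at the high end with 50336 per kb in mKD and 37806 in WT, and *Coa7* at the low end with 34.7 in mKD and 85.8 in WT. The order depends on the transcript taken as the length.

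Subunit 6A is a small subunit of the inner membrane, present in muscle mainly as *Cox6a2* (chromosome 7 of GRCm38, 128205435 to 128206387). *Cox6a2* had normalised counts of 35276, 38420 and 28990 in mKD and 22528, 24356 and 30239 in WT. WT 3 lay above mKD 3, so the genotypes overlapped, and the log2 fold change was 0.41 (SE 0.16, limma adjusted p = 0.24). *Cox6a1*, the liver-type isoform (chromosome 5, 115345642 to 115348981), had 673, 492 and 527 in mKD and 271, 265 and 475 in WT. Every mKD library lay above every WT library, although WT 3, at 475, was close to mKD 2, at 492. Its log2 fold change of 0.78 was the highest among the members (SE 0.25, limma adjusted p = 0.19).

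Subunit 7A lies at the edge of the enzyme and, like 6A, has a muscle and a liver-type isoform. *Cox7a1*, the heart and muscle isoform, had 5546, 6047 and 5193 normalised counts in mKD and 3706, 4446 and 5616 in WT. It did not pass the test (log2 fold change 0.30, SE 0.16, limma adjusted p = 0.35), with WT 3 above mKD 1 and mKD 3. *Cox7a2*, the liver-type isoform, had 4291, 4856 and 3953 in mKD and 3066, 3342 and 3786 in WT. Here the genotypes did not overlap and the log2 fold change was 0.36 (SE 0.13, limma adjusted p = 0.20).

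Subunit 8 is the smallest of the isoform-paired subunits by coding length. *Cox8b*, the heart and muscle isoform (chromosome 7, 140898945 to 140900446), had 14112, 14835 and 10297 normalised counts in mKD and 6127, 9590 and 11083 in WT. mKD 1 and 2 were above all WT libraries, but mKD 3 lay below WT 3. Its log2 fold change was 0.58 (SE 0.24, limma adjusted p = 0.26). *Cox8a*, the isoform of most other tissues (chromosome 19, 7215153 to 7217616), had 833, 767 and 634 in mKD and 431, 396 and 622 in WT. All mKD libraries were above all WT libraries, with mKD 3 and WT 3 close to each other, and the log2 fold change was 0.64 (SE 0.20, limma adjusted p = 0.18).

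Subunit 4 is the largest nuclear-encoded subunit and has a ubiquitous isoform, *Cox4i1*, and a lung-type isoform, *Cox4i2*. *Cox4i1* had 10743, 11450 and 10408 normalised counts in mKD and 6933, 8054 and 10004 in WT. The genotypes did not overlap, and the log2 fold change was 0.40 (SE 0.15, limma adjusted p = 0.22). *Cox4i2* had 36.3, 57.3 and 49.7 in mKD and 76, 44.1 and 81.8 in WT, and was the only subunit with a negative log2 fold change (-0.46, SE 0.33, limma adjusted p = 0.49). WT 2 lay among the mKD values, so this difference was within the spread between mice. It was called lower only after the length trend was removed, as given further on.

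The ratio of paired isoforms within a library does not depend on the library's scaling. The log2 ratio of *Cox6a2* to *Cox6a1* was 5.71, 6.29 and 5.78 in mKD and 6.37, 6.52 and 5.99 in WT. The difference in means was -0.37 with overlapping libraries (two-sided exact permutation test, p = 0.20, or 0.40 adjusted over the 4 ratios compared). The log2 ratio of *Cox7a1* to *Cox7a2* was 0.37, 0.32 and 0.39 in mKD and 0.27, 0.41 and 0.57 in WT, and the mKD libraries lay within the range of the WT libraries (difference -0.06, two-sided exact permutation test, p = 0.70, adjusted p = 0.80). The log2 ratio of *Cox8b* to *Cox8a* was 4.08, 4.27 and 4.02 in mKD and 3.83, 4.59 and 4.15 in WT, again within the WT range (difference -0.07, two-sided exact permutation test, p = 0.80, adjusted p = 0.80). Without WT 3 the difference for subunit 7A was 0.02, and without WT 2 that for subunit 8 was 0.13, so neither had a fixed direction.

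The subunit 4 ratio was the only ratio of the 4 whose genotypes did not overlap. The log2 ratio of *Cox4i2* to *Cox4i1* was -8.17, -7.62 and -7.68 in mKD and -6.49, -7.48 and -6.92 in WT. Each mKD library was below each WT library, with a difference of -0.86 (p = 0.10 in a two-sided exact permutation test, which cannot go lower with 3 mice per genotype; 0.40 adjusted over the 4 ratios). The longest transcripts of *Cox4i2* and *Cox4i1* have 733 and 765 nucleotides, and their median transcripts 730 and 608. *Cox4i2* was also far less abundant, and the endothelial marker sums given above were lower in mKD as well. The part of transcript length, level and endothelial cells in the ratio was not tested. Per kb, *Cox6a2* made up 97.8% to 98.5% of subunit 6A transcripts in mKD and 98.2% to 98.7% in WT. *Cox8b* made up 96.1% to 96.7% of subunit 8 transcripts in mKD and 95.6% to 97.4% in WT, and *Cox7a1* made up 67.6% to 68.8% of subunit 7A transcripts in mKD and 67% to 71.3% in WT. *Cox4i2* made up 0.352% to 0.52% of subunit 4 transcripts in mKD and 0.569% to 1.13% in WT. These shares depend on the transcript taken as the length. The principal transcripts of *Cox7a1* and *Cox7a2* have 393 and 659 nucleotides, and their median transcripts 439 and 477.

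**Figure D2:**
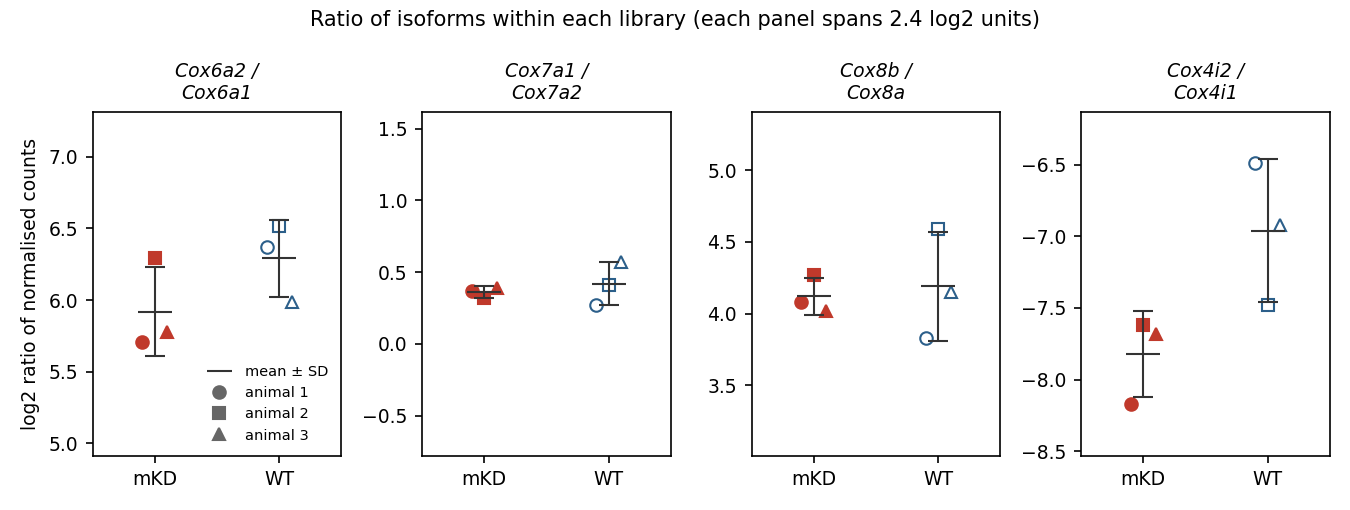
Log2 ratio of normalised counts of the paired isoforms within each library, with mKD (filled red) left of WT (open blue). The horizontal mark and bars are the mean ± SD of 3 mice, the marker shape gives the mouse number, and each panel spans the same range on its vertical axis. The genotypes separate for *Cox4i2* over *Cox4i1* (-8.17 to -7.62 in mKD, -7.48 to -6.49 in WT) and overlap in the other panels.

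Sequences around the transcription start of *Cox8b*, *Cox8a* and *Cox6a1* are shown because a muscle isoform and liver-type isoforms were called higher alike, while their start regions hold different motifs. The sequences are from RefSeq on GRCm38.p6, run from 170 bases before to 30 bases after the start (200 bases), and are written 5′ to 3′ on the gene's strand. Capitals mark the E-box CAGCTG, which myogenic factors such as MyoD bind, the ETS motif CCGGAAG, which GABPA and related factors bind and which reads CTTCCGG on the other strand, and the NRF1 motif CGCANGCG. *Cox8b* lies at chr7:140900417-140900616, *Cox8a* at chr19:7217587-7217786 and *Cox6a1* at chr5:115348929-115349128, each on the minus strand.
Cox8b: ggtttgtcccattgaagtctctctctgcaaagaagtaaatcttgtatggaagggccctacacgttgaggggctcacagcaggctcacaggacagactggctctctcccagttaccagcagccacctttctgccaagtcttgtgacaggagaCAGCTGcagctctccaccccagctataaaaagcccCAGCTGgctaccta
Cox8a: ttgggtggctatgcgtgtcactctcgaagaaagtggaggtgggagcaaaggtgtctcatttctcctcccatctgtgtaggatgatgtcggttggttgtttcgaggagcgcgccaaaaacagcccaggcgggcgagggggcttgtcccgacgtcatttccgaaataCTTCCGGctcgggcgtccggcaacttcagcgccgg
Cox6a1: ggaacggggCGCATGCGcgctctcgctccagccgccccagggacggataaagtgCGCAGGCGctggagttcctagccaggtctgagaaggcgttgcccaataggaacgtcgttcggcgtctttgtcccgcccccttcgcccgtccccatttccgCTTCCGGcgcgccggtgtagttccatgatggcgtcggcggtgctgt

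In *Cox8b* the E-box began at -19 and again at 17, counted from the start site. In *Cox8a* the ETS motif began at -5, and in *Cox6a1* at -16, with NRF1 motifs at -161 and -116. These matches describe the letters in the window, and binding was not measured.

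The subunits with a single somatic isoform, *Cox5a*, *Cox5b*, *Cox6b1*, *Cox6c*, *Cox7b* and *Cox7c*, were higher by similar amounts. Of these 6, 5 were called higher, at a median of 0.31 on the log2 scale (range 0.27 to 0.44). *Cox7c*, an inner-membrane subunit, had 7321, 8211 and 6449 normalised counts in mKD and 4733, 5817 and 5629 in WT. All mKD libraries lay above all WT libraries (log2 fold change 0.44, SE 0.13, limma adjusted p = 0.18). *Cox6c*, also of the inner membrane, had 9517, 9218 and 8563 in mKD and 7383, 8086 and 7156 in WT. It too showed no overlap, and its SE was the smallest of this group (log2 fold change 0.27, SE 0.10, limma adjusted p = 0.24). *Cox7b*, whose human counterpart is mutated in an X-linked microphthalmia syndrome, had 10246, 12592 and 9408 in mKD and 8298, 8463 and 8982 in WT. Its genotypes did not overlap, and mKD 2 stood highest (log2 fold change 0.31, SE 0.13, limma adjusted p = 0.26).

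*Cox5a*, which faces the matrix, had 10997, 10216 and 10671 normalised counts in mKD and 7213, 9268 and 9478 in WT. The genotypes did not overlap, and WT 1 was the lowest library (log2 fold change 0.31, SE 0.13, limma adjusted p = 0.27). *Cox5b*, the zinc-binding matrix subunit, had 7058, 6703 and 5638 in mKD and 5042, 4930 and 5824 in WT. mKD 3 lay below WT 3 (log2 fold change 0.29, SE 0.13, limma adjusted p = 0.27). A near copy of *Cox5b*, *Gm11273*, matches it at 99.2% over 390 nucleotides, so reads may be shared between them and the *Cox5b* value is uncertain. *Cox6b1*, on the intermembrane-space side, was not called (log2 fold change 0.31, SE 0.15, limma adjusted p = 0.32). *Cox7a2l* joins complex IV to complex III in supercomplexes. It had 3469, 3973 and 3613 normalised counts in mKD and 2563, 2988 and 2886 in WT. No library overlapped between genotypes (log2 fold change 0.39, SE 0.11, limma adjusted p = 0.16).

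The subunits shared an order of libraries in part. The median over the 14 subunits, as log2 difference from the WT mean, was 0.37, 0.50 and 0.21 in mKD 1, 2 and 3 and -0.18, -0.03 and 0.25 in WT 1, 2 and 3. By these medians WT 3 was slightly above mKD 3, and WT 1 was the lowest. By the sums given below, mKD 3 was slightly above WT 3. The highest library was mKD 2 for 8 subunits, mKD 1 for 5 and WT 3 for 1, while WT 1 was the lowest for 9. In 12 of 14 subunits mKD 1 and mKD 2 both lay above all WT libraries. In 6 of 14, WT 3 lay above the lowest mKD library. The subunit values summed to 126524, 134981 and 109531 in mKD and 82770, 94627 and 108504 in WT. This sum was 0.416% to 0.52% of all normalised counts in mKD and 0.322% to 0.437% in WT. Since subunits of 1 library share its preparation and depth, their common order is not 14 separate observations.

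**Figure D3:**
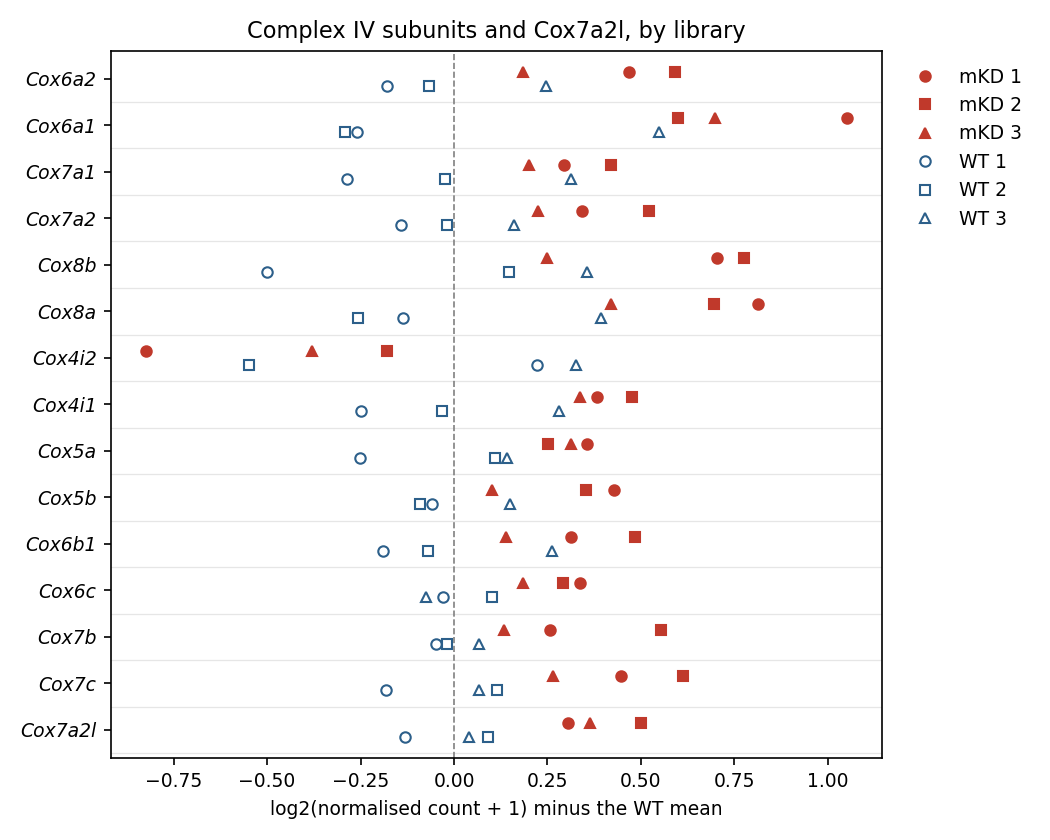
Log2(normalised count + 1) of the 14 subunits and *Cox7a2l* in each library, minus the gene's WT mean. Filled red markers are mKD and open blue markers WT, the marker shape gives the mouse number, and the dashed line is the WT mean. Every mKD library lies right of the WT mean for all genes shown except *Cox4i2*, and mKD 3 and WT 3 lie near each other in many.

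Among the 20 assembly factors, *Coa3*, *Pet100*, *Surf1*, *Cox14* and *Coa6* were called higher in mKD, and the other 15 did not pass the test. *Coa3* and *Cox14* bind newly made COX1, the largest core subunit, in an early intermediate. *Coa3* (chromosome 11, 101277968 to 101279114) had 1306, 1323 and 1250 normalised counts in mKD and 977, 952 and 1027 in WT. The genotypes were clearly apart, with a log2 fold change of 0.39 (SE 0.10, limma adjusted p = 0.15), the smallest adjusted p of any member. *Cox14* had 2313, 2308 and 1509 in mKD and 999, 1297 and 1548 in WT. mKD 3 lay just below WT 3 (log2 fold change 0.67, SE 0.22, limma adjusted p = 0.20). *Taco1*, a translational activator of COX1, had a log2 fold change of -0.15, and *Lrpprc*, which stabilises mitochondrial mRNAs, one of -0.01. Neither passed the test.

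Haem A is made by *Cox10* and *Cox15*, and *Surf1* acts in the haem A step of COX1 maturation. *Surf1* (chromosome 2, 26913381 to 26916530), whose human counterpart is mutated in Leigh syndrome, had 609, 574 and 627 normalised counts in mKD and 472, 437 and 456 in WT. The genotypes did not overlap and the mice within a genotype were close (log2 fold change 0.40, SE 0.11, limma adjusted p = 0.16). *Cox10*, *Cox15* and *Pet117* had log2 fold changes of 0.0012, 0.04 and -0.08 and were not called. Of the 4 haem factors, 1 was thus called higher and 0 lower, with a median of 0.02. Over all genes tested, 8.31% were called higher and 9.51% lower.

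Copper factors load the metal centres of COX1 and COX2. *Coa6*, which acts on the COX2 centre, had 339, 345 and 205 normalised counts in mKD and 184, 186 and 215 in WT. mKD 1 and 2 stood above all WT libraries and mKD 3 among them (log2 fold change 0.57, SE 0.23, limma adjusted p = 0.25). *Sco2*, a copper chaperone for COX2, had 252, 257 and 220 in mKD and 112, 145 and 262 in WT, with WT 3 the highest of all 6, and did not pass (log2 fold change 0.57, SE 0.30, limma adjusted p = 0.34). Its exons overlap *Tymp* on the same strand by 856 bases, so its value is uncertain. Over the 7 copper factors the log2 fold change ranged from -0.38 in *Sco1* to 0.57, with a median of 0.13, and *Cox17*, the copper chaperone upstream of the others, had 0.38 (limma adjusted p = 0.35). For COX2 itself, *Cox18* and *Cox20*, which insert and hold it, had log2 fold changes of 0.31 and 0.02 and were not called.

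*Pet100* (chromosome 8, 3621548 to 3625848), an inner-membrane assembly factor, had 406, 578 and 417 normalised counts in mKD and 277, 315 and 310 in WT. All mKD libraries lay above all WT libraries, with mKD 2 highest (log2 fold change 0.62, SE 0.17, limma adjusted p = 0.16). Its exons overlap *Pcp2* on the opposite strand by 941 bases, and the strand setting of the counting is not given in the sources used here. *Coa5* showed close values across mice, with a log2 fold change of 0.06. *Coa7*, an intermembrane-space factor, had 94.2, 171 and 121 in mKD and 157, 636 and 164 in WT. WT 2 stood far above the rest, and mKD 2 was above WT 1 and WT 3. The log2 fold change of *Coa7* was -1.02 (SE 0.53, limma adjusted p = 0.34) with all libraries and -0.36 without WT 2.

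The start regions of *Surf1* and *Pet100* are shown because both factors were called higher with no overlap between genotypes and both hold the ETS motif. *Surf1* lies at chr2:26916501-26916700 on the minus strand and *Pet100* at chr8:3621381-3621580 on the plus strand, with the same window, source and build as above and the ETS motif in capitals.
Surf1: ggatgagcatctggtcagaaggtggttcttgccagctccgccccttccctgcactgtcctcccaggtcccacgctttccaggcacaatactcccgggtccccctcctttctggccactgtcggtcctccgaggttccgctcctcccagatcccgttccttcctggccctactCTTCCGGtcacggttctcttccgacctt
Pet100: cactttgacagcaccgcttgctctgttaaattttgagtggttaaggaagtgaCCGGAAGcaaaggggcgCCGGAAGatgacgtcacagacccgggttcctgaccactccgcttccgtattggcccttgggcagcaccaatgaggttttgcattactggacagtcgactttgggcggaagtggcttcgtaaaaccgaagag

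In *Surf1* the motif began at 3, and in *Pet100* at -118 and -101. *Coa3*, also called higher with no overlap, held no ETS motif in its start region. Of 8 assembly factors with the ETS motif, 3 were called higher, at a median log2 fold change of 0.09. Of all 17 assembly factors with a start region, 4 were called higher, at a median of 0.04.

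**Figure D4:**
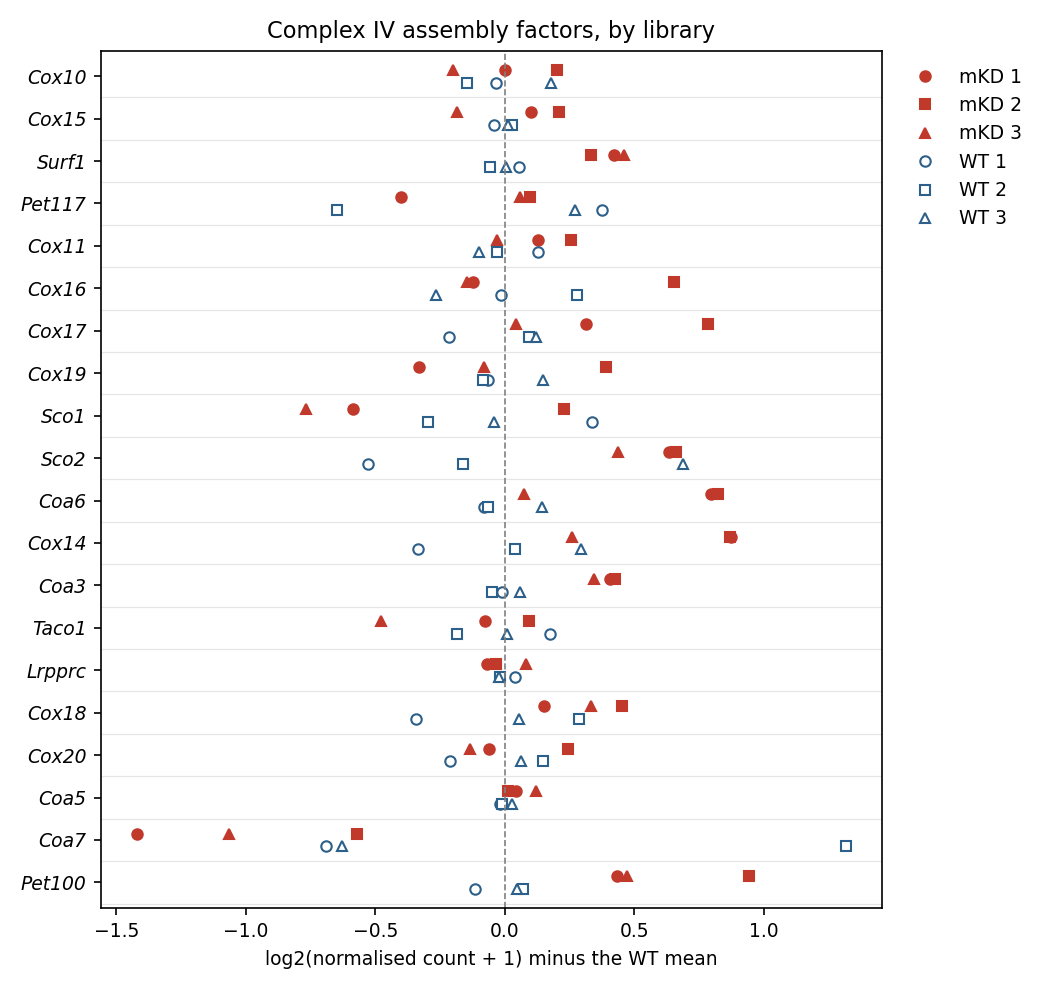
Log2(normalised count + 1) of the 20 assembly factors in each library, minus the gene's WT mean, ordered by role (haem, copper, COX1, COX2, others). Filled red markers are mKD and open blue markers WT, and the marker shape gives the mouse number. *Surf1*, *Coa3* and *Pet100* show no overlap between genotypes, and *Coa7* has 1 WT library (636 normalised counts) far from the others.

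The catalytic subunits of mitochondrial DNA did not pass the test. *mt-Co1* had 709804, 1052200 and 814217 normalised counts in mKD and 898955, 834758 and 979208 in WT (log2 fold change -0.09, SE 0.23). *mt-Co2* had 14414, 14464 and 12013 in mKD and 10801, 11947 and 13951 in WT (log2 fold change 0.16, SE 0.14). *mt-Co3* had 15904, 16511 and 13777 in mKD and 12084, 14561 and 15380 in WT (log2 fold change 0.14, SE 0.13). In all 3 genes the genotypes overlapped, and for *mt-Co2* and *mt-Co3* WT 3 lay among the mKD libraries. *mt-Co1* had far higher values than *mt-Co2* and *mt-Co3*, and the reason was not tested. Copies of these genes elsewhere in the genome were not examined, so their values are uncertain.

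Other nuclear genes linked to complex IV were examined beside the 35. Of 17 listed with values, 14 were tested, 2 were called higher and 0 lower, with a median log2 fold change of 0.21. Over all genes tested, 8.31% were called higher and 9.51% lower. *Higd2a*, which takes part in supercomplex formation, had 2452, 2349 and 2120 in mKD and 1706, 2010 and 1904 in WT (log2 fold change 0.30, SE 0.11, limma adjusted p = 0.23). *Apopt1*, a mitochondrial assembly factor, had 896, 1066 and 738 in mKD and 624, 736 and 702 in WT (log2 fold change 0.38, SE 0.16, limma adjusted p = 0.27). Neither overlapped between genotypes, although mKD 3 and WT 2 of *Apopt1* were nearly equal. *Oxa1l*, which inserts proteins into the inner membrane, and *Chchd7* had log2 fold changes of 0.33 and 0.40 and were not called. The testis isoforms *Cox7b2* and *Cox8c* were listed at 0 in all 6 libraries, and *Cox6b2*, also a testis isoform, did not pass the filter. *Cycs*, which encodes somatic cytochrome c, the electron donor of complex IV, had a log2 fold change of -0.09 and was not called.

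Of 9 regulators of respiratory genes, 1 was called, and it was lower, against 9.51% of all genes tested called lower. *Gabpa*, the DNA-binding subunit of the ETS factor GABP (also known as NRF2), had 635, 709 and 665 normalised counts in mKD and 885, 803 and 874 in WT. Every mKD library was below every WT library (log2 fold change -0.35, SE 0.11, limma adjusted p = 0.19). With the length trend removed (longest transcript), its log2 fold change was -0.22 and it was no longer called, whereas with the median transcript as the length it was -0.44 and *Gabpa* was called lower. *Nrf1*, which activates many respiratory genes, had 224, 236 and 229 in mKD and 200, 186 and 185 in WT. Its genotypes did not overlap, but it was not called (log2 fold change 0.27, SE 0.14, limma adjusted p = 0.34). *Nrf1* was called higher with the trend over the longest transcript removed (log2 fold change 0.32) and not called with the median transcript (0.27). *Ppargc1a*, which encodes PGC-1α, was not called (log2 fold change 0.09, SE 0.20). *Gabpb1* had 121, 84.7 and 108 in mKD and 150, 132 and 124 in WT. Its genotypes did not overlap, but it was not called (log2 fold change -0.38, SE 0.21). *Esrrg*, *Ppargc1b*, *Yy1*, *Esrra* and *Tfam* had log2 fold changes of -0.64, -0.57, -0.18, 0.08 and 0.14. All of these overlapped between genotypes and were not called.

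Complex IV subunit transcripts are short, and short transcripts as a class were higher in mKD. The longest annotated transcript had a median of 694 nucleotides over the subunits, 1358 over the assembly factors and 3480 over all genes tested. Over all genes tested, Spearman's rho of log2 fold change with this length was -0.446 (12315 genes, which share the same 6 libraries). Within the members rho was -0.51 over all 35, -0.53 over the 14 subunits and -0.43 over the 20 assembly factors. The 16 members under 1000 nucleotides had a median of 0.40 on the log2 scale, and the 19 longer members one of 0.13. The 468 tested genes under 1000 nucleotides had a median of 0.35, and 36.1% of them were called higher. Of the 16 members under 1000 nucleotides, 11 were called higher. Among assembly factors, the 5 under 1000 nucleotides had a median of 0.39 and the 15 others 0.06.

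After removal of the length trend (longest transcript) from each library, the subunit median was 0.06. *Cox5b*, *Cox6b1*, *Cox7a1* and *Cox7a2* then had log2 fold changes of -0.03, -0.06, -0.10 and -0.0025, and *Cox4i1* had 0.06. *Cox6a1* kept 0.41, *Cox17* 0.40, *Pet100* 0.35, *Cox14* 0.32, *Sco2* 0.31, *Cox8a* 0.25 and *Cox6c* 0.23, none of them called. The longest transcripts of *Cox6c* and *Cox17* have 3038 and 3690 nucleotides. With the median transcript as the length, these genes had 0.17 and 0.22. With the longest transcript, *Cox4i2* and *Taco1* were called lower, at -0.81 and -0.39. These were 2 of 35 members, against 673 of 12315 genes tested with a length. When length was taken from the median transcript, *Cox6a1*, *Cox7a2l*, *Cox7c*, *Cox8a*, *Cox14*, *Surf1*, *Coa3* and *Pet100* were called higher. The targeted gene moved with this step too: *Tet3*, whose longest transcript has 10904 nucleotides, had -0.22 with the longest transcript and -0.35 with the median transcript. What gives the length trend was not tested.

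**Figure D5:**
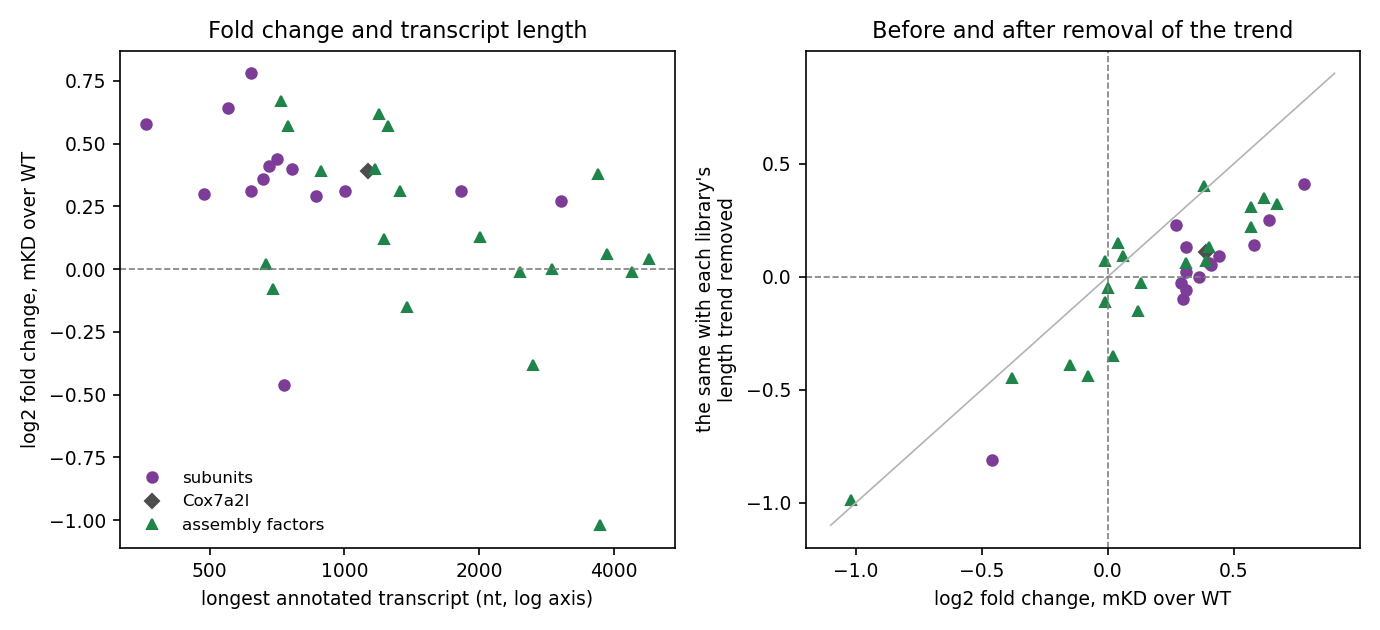
Left, log2 fold change (mKD over WT) of the 35 members against the longest annotated transcript on a log axis. Right, the same log2 fold change on the horizontal axis and its value after removal of the length trend on the vertical axis, with the line of equal values in grey. Circles are subunits, the diamond *Cox7a2l* and triangles assembly factors. Most subunits lie between 0.27 and 0.78 before the removal and near 0 after it.

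RefSeq start regions of 300 bases, 250 before and 50 after the start, matched 28 of the 35 members, with 29 windows in all. The ETS motif CCGGAAG, on either strand, was found in 12 of the 29 windows (41.4%), in 16.7% of 12319 windows of genes tested and in 8.86% of all 32851 windows. The NRF1 motif was found in 6.9% of member windows and 8.21% of all windows, and the E-box CAGCTG in 6.9% of member windows and 16.3% of all windows. Of 11 members with the ETS motif, 5 were called higher, with a median log2 fold change of 0.31. Of 17 members without it, 8 were called higher, with a median of 0.30.

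Some member values are uncertain because reads may be shared. Exons of 4 members overlap another gene on the same strand (*Cox16*, *Cox17*, *Sco2* and *Pet117*) and exons of 14 overlap a gene on the opposite strand, *Cox4i1*, *Cox6a2*, *Surf1*, *Coa3*, *Coa6* and *Pet100* among them. For 6 members (*Cox6c*, *Cox7a2l*, *Cox7b*, *Cox7c*, *Cox20* and *Lrpprc*) the annotation holds a processed pseudogene of at least 95% identity over 100 nucleotides or more.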

How the data were processed

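Per the labels and methods, RNA was extracted with an RNeasy fibrous tissue kit and libraries were made with a TruSeq Stranded mRNA kit. The authors deposited 1 table with a normalised signal per gene and library, that is read counts divided by 1 factor per library, made with Partek Flow version 9.0.20.0622. GRCm38 (mm10) and DESeq2 are named in the submitters' notes. The aligner and counter were not given in the sources used here. Deposited columns of the authors' own comparison (log2 fold changes, 2 score columns with standard errors and Wald statistics, p-values and adjusted p-values) and the authors' group means of the signal were not used. The number of columns of per-sample values left unmapped was 0.

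Dividing each library by the value of 1 read gave whole reads for 100% of values within 1e-04. The totals of 16219227 to 32148270 reads limit how precisely genes with few reads were measured. Genes passing edgeR's filter on low counts (12322) were tested with limma 3.58.1 with a trend (R 4.3.3) on log2(value + 1), with genotype as the only term. Folds are on that scale and understate changes of low genes. Alternatives were edgeR 4.0.16 and DESeq2 1.42.0 on the recovered reads, TMM and upper-quartile scaling, pseudocounts of 0.5 and 4, no filter, a mean of at least 50, removal of each library's trend over transcript length (lowess, span 0.3), a replicate block, other thresholds and leaving out libraries. The tests were checked on simulated data. Lengths and coordinates came from GENCODE M21 on GRCm38, which held 99.71% of gene identifiers (86.32% in the same version).

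The members, lists and tests were chosen with earlier results of these data known. Values per library are given for the isoform pairs and for the further subunits and assembly factors with the smallest p. Mice are taken as separate samples, since the paper describes those of a genotype as biological replicates. Marker lists for macrophages, fibroblasts, erythroid cells, adipocytes and brown fat were also summed. Of these only adipocyte markers had a call (1 of 5 higher, against 8.31% of all genes tested). Their sums were 5801 to 8871 in mKD and 4258 to 4644 in WT. Within these sums *Fabp4* held 3862 to 4780 in mKD and 3396 to 4244 in WT. *Cfd*, the marker called, had 3771, 771 and 2822 in mKD and 706, 568 and 13.9 in WT. *Adipoq*, *Plin1* and *Lep* were at 0 in WT 3. The part of adipocytes in the complex IV results was not tested.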

Additional observations from a re-analysis of the deposited data

How the results depend on the processing

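The 17 members called higher were 15 with edgeR, 17 with DESeq2, TMM or upper-quartile scaling and either other pseudocount, 16 with a mean of at least 50, 11 without the filter, 0 and 8 with the length trend over the longest and the median transcript removed, 4 with a fold of 1.5 and 0 when adjusted p had to be under 0.05. The 0 members called lower became 1 (*Coa7*) with edgeR and DESeq2 (log2 fold change -1.30 and -1.31) and 2 with the longest transcript. Leaving out 1 library at a time gave 6 to 18 members higher and 0 to 1 lower, subunit medians of 0.28 to 0.45 and assembly factor medians of 0.03 to 0.17. The subunit median was 0.06 with the longest transcript. Without mKD libraries 1 and 3, an alternative chosen after seeing the data, 11 members were higher and the assembly factor median was 0.29.

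Of all genes, 1024 were called higher and 1172 lower. These became 621 and 673 with the longest transcript, 454 and 734 without mKD libraries 1 and 3, 312 and 580 with a fold of 1.5, 0 and 2 when adjusted p had to be under 0.05, and 582 to 1122 and 843 to 1198 when 1 library was left out.

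Deviations from the genotype mean were little correlated between mice of the same replicate number (0.055, -0.051 and -0.076). With 3 mice per genotype, these values cannot tell whether mice shared a litter or a preparation. With the replicate block 10 members were called higher and 1 lower.

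Signs turned with the longest transcript for *Cox5b* (-0.03), *Cox6b1* (-0.06), *Cox7a1* (-0.10), *Cox7a2* (-0.0025), *Cox10* (-0.05), *Cox11* (-0.15), *Cox16* (-0.03), *Cox20* (-0.35) and *Lrpprc* (0.07), and with the median transcript for *Cox20* (-0.10). *Cox19* was 0.03 with edgeR, 0.02 with DESeq2, 0.0016 with TMM scaling and 0.39 without mKD libraries 1 and 3, where *Sco1* was 0.23, *Pet117* 0.10 and *Taco1* 0.09. *Lrpprc* was 0.0039 with edgeR and 0.0027 with TMM scaling. With 1 library left out, ranges crossed 0 for *Cox10* (-0.10 to 0.10), *Cox15* (-0.04 to 0.16), *Cox16* (-0.13 to 0.27), *Cox19* (-0.21 to 0.15), *Cox20* (-0.10 to 0.09), *Pet117* (-0.40 to 0.11), *Taco1* (-0.28 to 0.01), *Lrpprc* (-0.05 to 0.02) and the ratios of *Cox7a1* to *Cox7a2* (-0.13 to 0.02) and *Cox8b* to *Cox8a* (-0.25 to 0.13). The causes were not tested.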
